A study of Mus musculus with 21 samples.

Results

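The step from day 7 to day 14 after folic acid was described in mouse kidney by 6 small RNA libraries, 3 of day 7 and 3 of day 14, out of the 21 libraries and 7 days of the series. They were chosen by their labelled day alone. All were made from homogenized whole kidney of male BALB/c mice, labelled 12 weeks old, that had been injected with 250 mg/kg of folic acid dissolved in sodium bicarbonate. Days 7 and 14 therefore share strain, sex, agent and dose and differ by the day of collection. No library of either day came from a mouse without folic acid, and whether the day 0 mice, used below as the starting level, had been injected is not stated. Nothing in the labels ties each library to an animal of its own. The p-values therefore measure only the spread between libraries of the same day, which may be technical. That spread was estimated over all 21 libraries and not from the 6 alone. The question was which miRNAs that are raised after the injury recede in the second week, and which return from a low level.

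A high dose of folic acid damages the renal tubules. The surviving epithelium then divides to repair them, immune cells enter, and part of the tissue goes on to fibrosis. A miRNA is a short RNA, cut from a hairpin, that guides an Argonaute protein to messenger RNAs which pair with its seed, bases 2 to 8 from its 5′ end, and lowers their output. Both arms of a hairpin, written 5p and 3p, can be loaded. miR-21 is known as a miRNA of injured and fibrotic kidney, miR-132 and miR-212 come from 1 transcript induced by several growth and stress signals, the miR-17 to miR-92a cluster is driven by MYC and E2F in dividing cells, and miR-223 is abundant in myeloid cells.

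The miRNAs that passed the test between the 2 days are shown here with the seed in capitals, 5′ to 3′, as RefSeq gives them for GRCm38.p6. Of 431 miRNAs tested, 335 matched a RefSeq entry by name, as did 17 of the 19 that passed. miR-874-3p and miR-92a-5p are named only. The first group holds both arms of miR-21 (miR-21a in RefSeq) and miR-212-3p, set beside miR-132-3p, which has the same seed and did not pass.
miR-21-5p: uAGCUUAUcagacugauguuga
miR-21-3p: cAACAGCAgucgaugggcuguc
miR-212-3p: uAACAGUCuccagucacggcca
miR-132-3p: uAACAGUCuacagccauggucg

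The next group holds the AAAGUGC seed and its relatives in the same clusters. The 4 members that passed come first, then miR-106a-5p and miR-20b-5p, which share the seed and did not pass, then the other members of the clusters that passed.
miR-17-5p: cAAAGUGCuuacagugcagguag
miR-20a-5p: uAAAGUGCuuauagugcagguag
miR-93-5p: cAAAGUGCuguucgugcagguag
miR-106b-5p: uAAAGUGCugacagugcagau
miR-106a-5p: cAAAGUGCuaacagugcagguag
miR-20b-5p: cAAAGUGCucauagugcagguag
miR-18a-5p: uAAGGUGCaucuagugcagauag
miR-18a-3p: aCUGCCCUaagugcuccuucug
miR-92a-3p: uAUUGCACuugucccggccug

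The last group holds the remaining miRNAs that fell (miR-15b-5p, miR-223-3p, miR-330-5p) and 4 that rose.
miR-15b-5p: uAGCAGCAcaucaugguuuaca
miR-223-3p: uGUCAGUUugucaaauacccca
miR-330-5p: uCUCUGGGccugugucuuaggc
miR-181a-5p: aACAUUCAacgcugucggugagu
miR-181c-5p: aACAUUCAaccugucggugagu
miR-26a-5p: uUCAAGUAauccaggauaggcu
miR-30e-3p: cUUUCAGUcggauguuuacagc

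These 17 sequences carry 13 distinct seeds, so the step was not the movement of 1 seed family. Some relatives are nearly the same molecule. miR-17-5p and miR-106a-5p differ by 1 base, as do miR-181a-5p and miR-181c-5p, and miR-17-5p and miR-20a-5p differ by 2 (edit distance). How reads that match several of these were assigned is not given in the sources used here, so the split between such pairs is uncertain.

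The deposited values are CPM, reads scaled to a common total of reads assigned to miRNAs. Levels below are CPM after TMM scaling, which corrects for a few abundant miRNAs taking a larger share of the reads. The 6 libraries held 3115403 to 6415634 reads assigned to miRNAs, and the lowest of the 21 libraries held 2875675. Differences are day 14 minus day 7 of log2(CPM + 1), a scale that understates the change of scarce miRNAs, and each is printed with its standard error from the fit. The test was limma's, in 1 fit over the 21 libraries with a mean for each day, and calls were made at a Benjamini-Hochberg adjusted p under 0.05 over the 431 tested miRNAs. Markers were checked against the labelled tissue. The summed level of the tubule list was 316900 to 418100 CPM in the 6 libraries, and striated muscle markers summed to at most 31.7 CPM. The largest part of the tubule sum was miR-10a-5p and miR-10b-5p, with day 7 means of 165700 and 113900 CPM, beside 66360 CPM for miR-192-5p. Of 6 markers of other organs, 4 had at most 2 reads in a library, among them liver miR-122-5p and brain miR-124-3p. The other 2, neural miR-9-5p and epithelial miR-205-5p, had 546 to 1416 and 349 to 820 reads, and the 6 summed to 307.2 to 394.7 CPM.

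The day 14 libraries were not alike. Over the 128 miRNAs called higher at day 7 than at day 0, the median height above day 0 was 0.759 in day 14 replicate 1 and 0.656 in replicate 2 but 0.949 in replicate 3 (log2), against 0.868 to 1.204 in the day 7 libraries. Over the 98 called lower at day 7 than at day 0, the medians of the day 14 libraries were -0.391, -0.425 and -0.719, against -0.698 to -0.587 at day 7. Day 14 replicate 3 thus lay within the day 7 range on the first measure and slightly beyond it, farther below day 0, on the second. Both sets were chosen with the day 7 libraries themselves, which favours a larger distance from day 0 at day 7 than at day 14. Over all tested miRNAs, the root mean square distance from the day 7 mean was 0.399, 0.496 and 0.374 (log2) in day 14 replicates 1, 2 and 3. By that measure replicate 3 was only slightly nearer to day 7 than replicate 1. Where a call named below changes without it, both values are given, and the cause of its position was not tested. Leaving out the day 14 library that lies nearest to day 7 favours larger differences between the days. Calls gained that way are therefore a description and no further evidence of a change.

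Between day 7 and day 14, 19 of the 431 miRNAs (4.41%) were called, 14 lower (3.25%) and 5 higher (1.16%), and 76 had an unadjusted p under 0.05. The libraries of the 2 days did not overlap for any of the 19. Over all tested miRNAs, 44 (10.2%) lay wholly below and 25 (5.80%) wholly above their day 7 values, and 226 had a difference below 0. The falls were led by both arms of miR-21, miR-18a-5p, miR-223-3p, miR-212-3p and miR-106b-5p, and the rises by miR-874-3p, miR-30e-3p and miR-181a-5p. miR-21-5p held 7.76% ± 0.580 of the miRNA reads at day 7 and 4.42% ± 1.58 at day 14 (SD, n = 3), from 1.40% ± 0.151 at day 0. The 14 miRNAs that fell held 8.95% ± 0.611 together at day 7 and 5.26% ± 1.69 at day 14, and the 5 that rose went from 4.78% ± 0.211 to 6.05% ± 0.212. The number called moved with single libraries: 6 without day 7 replicate 1, 8 without day 7 replicate 2, 14 without day 7 replicate 3, 9 without day 14 replicate 1, 5 without day 14 replicate 2, and 57 (13.2%) without day 14 replicate 3, of which 32 were lower (7.42%) and 25 higher (5.80%). In a fit on the 6 libraries alone it was 0, with 46 at an unadjusted p under 0.05, while edgeR and DESeq2 on the recovered reads called 20 and 25. With upper-quartile scaling, which moves the median of all miRNAs from -0.011 to 0.128, the split was 14 higher and 6 lower, and all 19 kept their direction there.

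**Figure D1:**
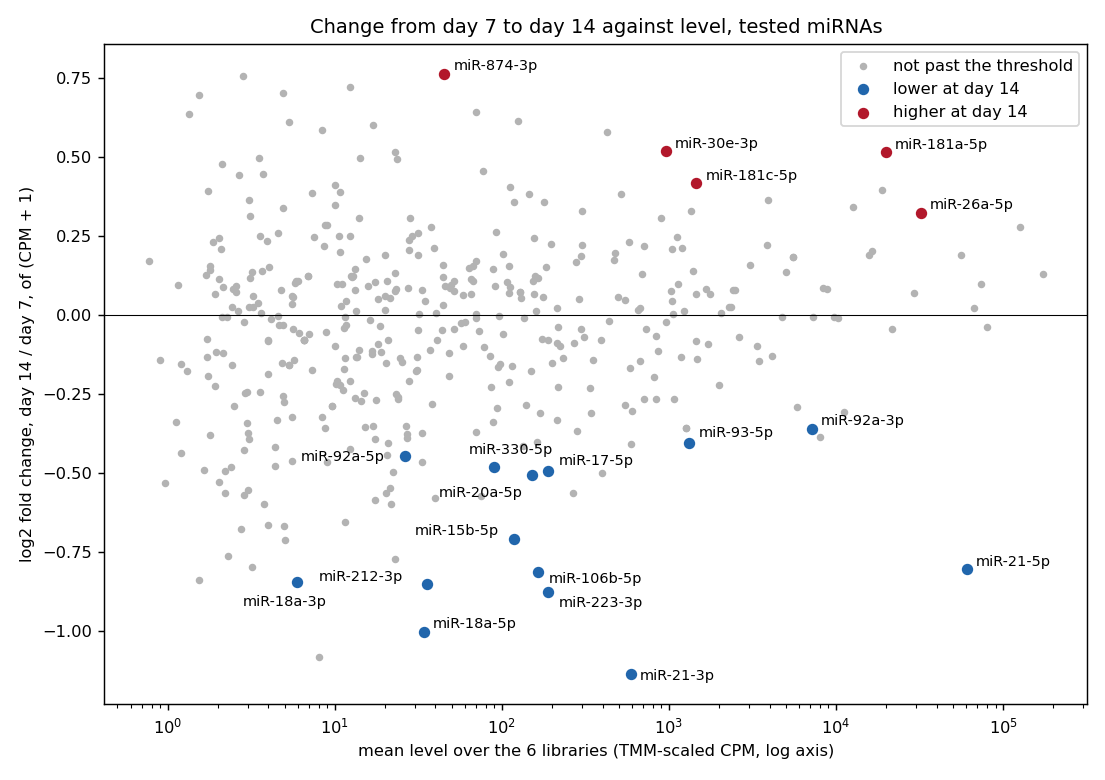
Each point is 1 of 431 miRNAs, with its mean level over the 6 libraries (TMM-scaled CPM, log axis) on the x axis and its log2 fold change, day 14 over day 7, on the y axis. The 14 blue points are miRNAs called lower and the 5 red points those called higher. miR-21-3p lies lowest at -1.14 and miR-874-3p highest at 0.76, and the cloud of miRNAs that were not called widens toward low levels.

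Both arms of miR-21 fell. miR-21-5p, the guide arm, measured 87520, 74800 and 66700 CPM in the 3 day 7 libraries and 41080, 34170 and 58200 CPM in the 3 day 14 libraries. The 3 day 14 values were all below the 3 of day 7, and day 14 replicate 3 lay nearest to them. The difference was -0.81 ± 0.154 (limma, adjusted p = 0.00528). miR-21-3p, the scarcer arm, went from 829.9, 826.3 and 757.9 CPM to 343.5, 267.2 and 529.2 CPM, a difference of -1.14 ± 0.196 (limma, adjusted p = 0.00442). Its day 7 libraries were close together and its day 14 libraries spread, again with replicate 3 on top. Day 7 was not the peak of miR-21-3p, which measured 1660, 1474 and 1348 CPM at day 2 and 1291, 1095 and 965.8 CPM at day 3. The calls of both arms held without each of the 6 libraries in turn. Both arms come from 1 hairpin (chr11:86584067-86584158, minus strand, GRCm38) in an annotated exon of Vmp1, and the table gives no level of the host transcript. In whole kidney, fewer cells that make a miRNA and less of it per cell cannot be told apart, here and below.

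The other injury-associated miRNAs moved less evenly. Of 12 members of that list tested, 3 were called lower (3.25% of all tested miRNAs were) and none higher. In 10 the difference was below 0, beside 226 of all 431. The median was -0.391 against -0.011 for all tested miRNAs. The members were drawn up with results on this model known, so the list is no independent evidence of its direction. miR-212-3p measured 43.5, 46.3 and 45.7 CPM at day 7 and 18.9, 19.6 and 39.8 CPM at day 14. Replicates 1 and 2 of day 14 were far below day 7 and replicate 3 was just below it. The difference was -0.85 ± 0.239 (limma, adjusted p = 0.0429), from 58 to 311 reads per library. Its call was lost without any of the other 5 libraries (adjusted p from 0.103 to 0.261). With day 14 replicate 3 left out, the difference was -1.19 (limma, adjusted p = 0.000978). miR-132-3p, which lies in the same transcript (both hairpins within chr11:75173388-75173747, plus strand), measured 350.4, 300.5 and 288.6 CPM at day 7 and 224.7, 178.4 and 351.4 CPM at day 14. Its day 14 replicate 3 was as high as the highest day 7 library, so the days overlapped. The difference of -0.37 ± 0.198 was not called (limma, adjusted p = 0.355) and was -0.64 without that library (limma, adjusted p = 0.0275).

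miR-146b-5p, known as an NF-kB and fibrosis miRNA, was not lower at day 14. It measured 904.2, 615.8 and 494.7 CPM at day 7 and 736.9, 683.1 and 715.3 CPM at day 14, a difference of 0.13 ± 0.205 (limma, adjusted p = 0.827). All day 14 values lay inside the day 7 range, and the sign turned without day 7 replicate 3 (-0.07). miR-298-5p went from 34.5, 30.9 and 22.4 CPM to 15.2, 13.5 and 21.7 CPM without overlap, -0.77 ± 0.260, but was not called (limma, adjusted p = 0.112). It passed with all 6 libraries in DESeq2 (-0.79, adjusted p = 0.0302), with a pseudocount of 5 (-0.66, limma, adjusted p = 0.0401) and with library quality weights (-0.86, limma, adjusted p = 0.0338), and without day 14 replicate 3 (-0.96, limma, adjusted p = 0.0301). The arms of miR-31, a miRNA of regenerating epithelium, had differences of -0.31 (5p, limma, adjusted p = 0.448) and -0.67 (3p, limma, adjusted p = 0.139). The 3p arm, at under 7 CPM in each library, passed without day 14 replicate 3 (-0.86, limma, adjusted p = 0.0364). miR-34a-5p, a target of p53, had a difference of -0.41 (limma, adjusted p = 0.323), miR-375-3p one of -0.30 (limma, adjusted p = 0.254), miR-182-5p one of -0.29 (limma, adjusted p = 0.526) and miR-155-5p, a miRNA of activated leukocytes, one of 0.00 (limma, adjusted p = 0.990). Within the injury list, the arms of miR-21 and miR-212-3p were thus the members with a call. Without day 14 replicate 3 the number was 6, all lower, where 7.42% of all tested miRNAs were called lower.

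**Figure D2:**
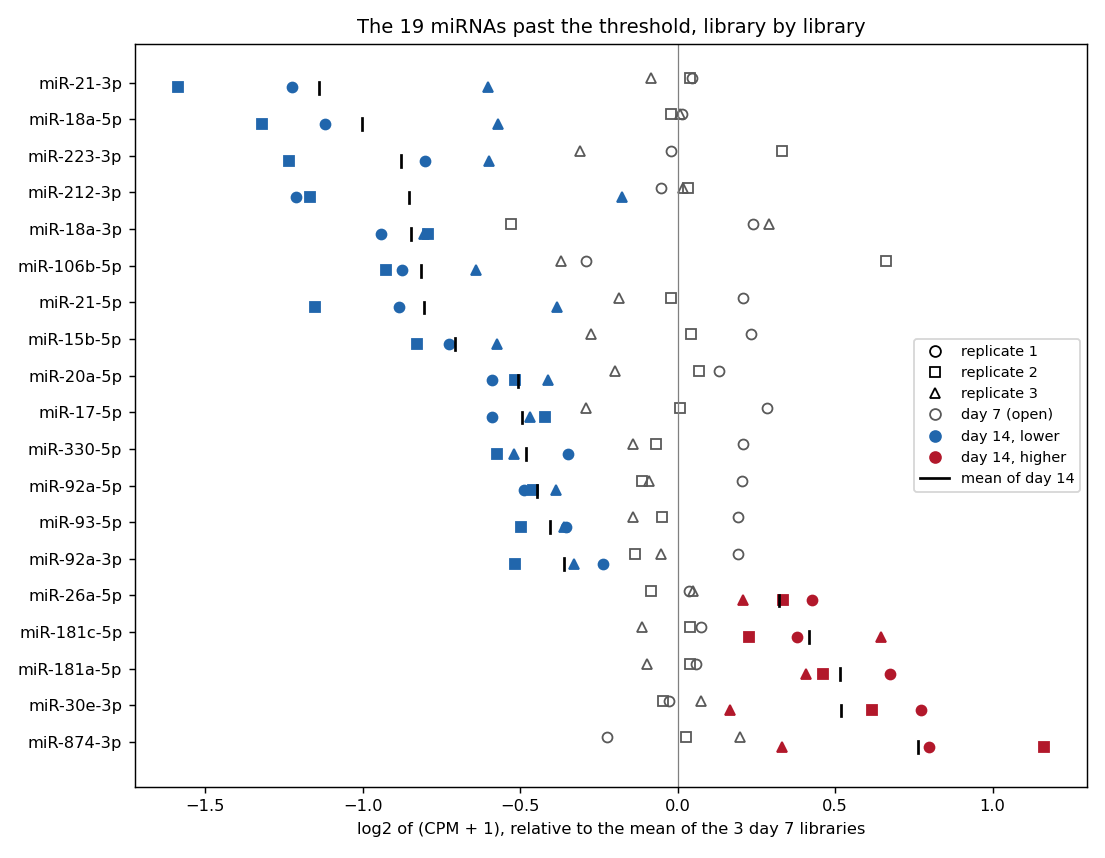
Level of each of the 19 called miRNAs (rows) in each of the 6 libraries, as log2(CPM + 1) relative to the mean of day 7 (x axis). Open symbols are day 7, filled ones day 14 (blue lower, red higher), shapes are replicates and bars the day 14 means. The day 14 points lie wholly on 1 side of the day 7 points for all 19, and day 14 replicate 3 is the highest of its day in 9 of 14 falls and the lowest in 4 of 5 rises.

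The proliferation list gave the largest number of falls. It holds the 3 paralogous clusters around miR-17, miR-106b and miR-106a, and of 17 members tested 7 were called lower (3.25% of all tested miRNAs were) and none higher, with a median of -0.407. The members of this list were also chosen with earlier results of these data known, and several share a hairpin or a cluster. The count is therefore no independent evidence of a direction. Without day 14 replicate 3, 8 members were called lower (7.42% of all were) and 2 higher (5.80% of all). With upper-quartile scaling the median was -0.253 and miR-18a-5p and miR-106b-5p kept their calls. The clusters are taken in turn, and differences between them were not tested. The miR-17 to miR-92a cluster (chr14:115043671-115044506, plus strand, 836 bases) lies in an exon of the noncoding host Mir17hg. All 9 of its tested members had a difference below 0 (226 of all 431 did), with a median of -0.493. Of them 5 were called lower, beside 3.25% of all.

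miR-18a-5p, which shares most of its sequence with miR-17-5p but has its own seed, measured 45.7, 44.6 and 45.5 CPM at day 7 and 20.3, 17.5 and 30.1 CPM at day 14. The day 7 libraries were close together and each day 14 library was clearly lower. The difference was -1.0 ± 0.202 (limma, adjusted p = 0.00624), and the call was lost without day 14 replicate 2 (-0.85, limma, adjusted p = 0.0634). Its other arm, miR-18a-3p, held 34 to 43 reads in the day 7 libraries and 12 to 18 in those of day 14, or 9.32, 5.06 and 9.69 CPM against 3.55, 4.05 and 4.0 CPM. The difference of -0.85 ± 0.225 was called (limma, adjusted p = 0.0364). Leaving out day 7 replicate 1 or 3, or day 14 replicate 1 or 2, ended that call (adjusted p from 0.101 to 0.144).

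miR-17-5p, which targets cell cycle inhibitors, measured 267.8, 220.8 and 179.2 CPM at day 7 and 145.7, 163.9 and 158.3 CPM at day 14. The days did not overlap, although day 7 replicate 3 came close to day 14. The difference was -0.49 ± 0.135 (limma, adjusted p = 0.0383), with the call lost without day 7 replicate 1 or 2 or day 14 replicate 1 or 2 (adjusted p from 0.101 to 0.186). miR-20a-5p, of the same seed, went from 194.8, 186.1 and 154.6 CPM to 117.6, 123.8 and 133.3 CPM, a difference of -0.51 ± 0.117 (limma, adjusted p = 0.0163). Here too the day 14 libraries were all lower, and the call was lost without the same 4 libraries (adjusted p from 0.075 to 0.103). miR-92a-3p, the most abundant member, measured 9141, 7280 and 7711 CPM at day 7 and 6799, 5593 and 6374 CPM at day 14. Its difference was small, -0.36 ± 0.0984 (limma, adjusted p = 0.0383), and the call was lost without day 7 replicate 1 or 3 or day 14 replicate 2 (adjusted p from 0.064 to 0.261). miR-92a-5p had no matched sequence, so which miR-92a hairpin it came from was not established. It went from 35.3, 28.1 and 28.6 CPM to 21.5, 21.9 and 23.1 CPM. That difference of -0.45 ± 0.123 was called (limma, adjusted p = 0.0392), and lost without any 1 library other than day 14 replicate 3 (adjusted p from 0.0593 to 0.181). Both miR-92a arms were higher at day 2 than at day 7. The 5p arm measured 53.3, 52.0 and 51.5 CPM at day 2 and the 3p arm 11890, 11500 and 12060 CPM.

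The miR-19 members of the cluster did not pass. miR-19a-3p measured 118.3, 83.0 and 71.1 CPM at day 7 and 48.5, 70.2 and 61.2 CPM at day 14, which do not overlap by a narrow margin. The difference was -0.57 ± 0.208 (limma, adjusted p = 0.139). miR-19b-3p overlapped between the days, with -0.41 ± 0.226 (limma, adjusted p = 0.377). miR-17-3p had a difference of -0.41 (limma, adjusted p = 0.182) and miR-20a-3p, at 7 to 25 reads per library, one of -0.43 (limma, adjusted p = 0.491).

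The miR-106b to miR-25 cluster (chr5:138165321-138165818, minus strand) lies within Mcm7, a gene of the replicative helicase. Of its 6 tested members, 2 were called lower (3.25% of all were) and 5 had a difference below 0 (226 of all 431 did). The median was -0.296. miR-106b-5p measured 165.1, 320.3 and 156.4 CPM at day 7 and 109.9, 105.9 and 129.5 CPM at day 14. Day 7 replicate 2 stood far above the other day 7 libraries, and all 3 day 14 libraries were below them. The difference was -0.81 ± 0.186 (limma, adjusted p = 0.0163). Without day 7 replicate 2 it was -0.51 (limma, adjusted p = 0.0616). Leaving out day 14 replicate 1 or 2 also ended the call (limma, adjusted p = 0.0608 and 0.0998). miR-93-5p, at 1717, 1455 and 1364 CPM against 1177, 1065 and 1172 CPM, had a difference of -0.40 ± 0.0916 (limma, adjusted p = 0.0163). It was not called without day 7 replicate 1 or day 14 replicate 2 (adjusted p = 0.103 and 0.101 in limma). miR-25-3p, which shares the seed of miR-92a-3p, had a difference of -0.22 and was not called (limma, adjusted p = 0.320). miR-106b-3p, at -0.37, passed only without day 14 replicate 3 and with the library quality weights (limma, adjusted p = 0.0268 and 0.0420).

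The X-linked paralog, miR-106a to miR-363 (chrX:52741693-52742567, minus strand), also holds second copies of miR-19b and miR-92a, whose mature 3p reads cannot be told from those of the chromosome 14 cluster and are counted there. Of the 3 tested members found in this cluster alone, none was called and all had a difference above 0, with a median of 0.586. miR-106a-5p measured 3.25, 5.51 and 3.23 CPM at day 7 and 7.68, 7.08 and 4.95 CPM at day 14, a difference of 0.61 ± 0.214 (limma, adjusted p = 0.124). miR-20b-5p measured 4.55, 7.00 and 6.96 CPM and then 11.4, 15.2 and 4.95 CPM, a difference of 0.59 ± 0.288 (limma, adjusted p = 0.295). Replicates 1 and 2 of day 14 were above every day 7 library for both, and replicate 3 was within the day 7 range. Without day 14 replicate 3 both were called higher, by 0.78 (limma, adjusted p = 0.0301) and 1.0 (limma, adjusted p = 0.0132). miR-363-3p had a difference of 0.12 (limma, adjusted p = 0.857) whose sign turned without day 7 replicate 3 or day 14 replicate 2 (-0.09 and -0.12). Of the 6 tested miRNAs with the seed AAAGUGC printed above, 4 were called lower and the X-linked pair lay above 0. Both X-linked members are scarce, and 1 base separates miR-106a-5p from the far more abundant miR-17-5p.

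miR-15b-5p belongs to another family, of seed AGCAGCA, known for slowing the G1 to S transition. It measured 170.3, 149.4 and 119.6 CPM at day 7 and 87.2, 81.3 and 97.0 CPM at day 14. All day 14 libraries were lower, and the difference of -0.71 ± 0.132 was called (limma, adjusted p = 0.00528) in every fit that left out 1 library. Its hairpin lies in an intron of Smc4, a condensin gene, next to Mir16-2. Of the 6 tested miRNAs with this seed, miR-15b-5p was the 1 called. miR-16-5p, which is also made from a locus on chromosome 14, had a difference of -0.31 (limma, adjusted p = 0.25) and passed with library totals in place of TMM (-0.37, limma, adjusted p = 0.0488). miR-15a-5p had one of -0.27 (limma, adjusted p = 0.124) and passed without day 14 replicate 3 (-0.31, limma, adjusted p = 0.0448). miR-195-5p and miR-497-5p lay above 0, at 0.19 and 0.18 (limma, adjusted p = 0.386 and 0.504). miR-330-5p, from an exon of Eml2, went from 120.9, 99.7 and 94.7 CPM to 81.9, 69.8 and 72.5 CPM. Its difference was -0.48 ± 0.119 (limma, adjusted p = 0.0226), lost without day 7 replicate 1 or 2 or day 14 replicate 2 (adjusted p from 0.0616 to 0.127).

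Among 11 leukocyte miRNAs, miR-223-3p was the 1 called lower (3.25% of all tested miRNAs were), none was higher, and the median was -0.213. miR-223-3p, a miRNA of neutrophils and monocytes, measured 236.0, 301.9 and 193.1 CPM at day 7 and 137.1, 101.2 and 157.8 CPM at day 14. The days did not overlap and the difference was -0.88 ± 0.209 (limma, adjusted p = 0.0167). The call was lost without day 7 replicate 1 or 2 or day 14 replicate 2 (adjusted p from 0.0757 to 0.127). Its other arm, miR-223-5p, had a difference of -0.24 at 31 to 86 reads per library (limma, adjusted p = 0.699). miR-142-3p, found in all blood cell lineages, measured 257.2, 280.3 and 169.5 CPM and then 201.5, 199.0 and 188.9 CPM, with overlap (-0.23, limma, adjusted p = 0.578). miR-511-3p, a macrophage miRNA, had a difference of -0.65 (limma, adjusted p = 0.280) and miR-342-3p one of -0.21 (limma, adjusted p = 0.587). miR-150-5p, of mature lymphocytes, lay above 0 at 0.33 (limma, adjusted p = 0.430). miR-146a-5p, a negative regulator of NF-kB signalling, measured 327.0, 409.0 and 283.4 CPM at day 7 and 596.3, 574.5 and 369.8 CPM at day 14. Its difference of 0.58 was not called (limma, adjusted p = 0.139), but was 0.80 without day 14 replicate 3 (limma, adjusted p = 0.0248). The summed level of the leukocyte list ranged from 2585 to 3780 CPM at day 7 and from 2779 to 3408 CPM at day 14, and its part in the fall of miR-223-3p was not tested.

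The 5 miRNAs that rose were miR-874-3p, miR-30e-3p, miR-181a-5p, miR-181c-5p and miR-26a-5p. miR-181a-5p, which tunes lymphocyte signalling and is abundant in kidney too, measured 16940, 16690 and 15190 CPM at day 7 and 25930, 22400 and 21580 CPM at day 14. The day 14 libraries were all higher, and the difference of 0.52 ± 0.104 (limma, adjusted p = 0.00624) held without each library in turn. miR-181c-5p went from 1305, 1276 and 1147 CPM to 1614, 1452 and 1940 CPM, a difference of 0.42 ± 0.108 (limma, adjusted p = 0.0311). Here day 14 replicate 3 was the highest library, and the call was lost without it (0.30, limma, adjusted p = 0.0637). It was also lost when any day 7 library or day 14 replicate 1 was left out (limma, adjusted p from 0.075 to 0.115). All 4 members of the family share the seed ACAUUCA and had a difference above 0, with a median of 0.332. miR-181b-5p at 0.25 (limma, adjusted p = 0.25) and miR-181d-5p at 0.19 (limma, adjusted p = 0.578) did not pass.

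miR-30e-3p belongs to the miR-30 family, epithelial miRNAs that are abundant in the kidney. It measured 766.0, 756.1 and 821.3 CPM at day 7 and 1333, 1198 and 876.4 CPM at day 14. Replicates 1 and 2 of day 14 were well above day 7 and replicate 3 just above it. The difference was 0.52 ± 0.122 (limma, adjusted p = 0.0163), and the call was lost without day 7 replicate 1 or 2 or day 14 replicate 1 or 2 (adjusted p from 0.0791 to 0.126). All 7 tested family members had a difference above 0, with a median of 0.329, while 226 of all 431 miRNAs lay below 0. miR-30e-3p was the 1 called, where 1.16% of all were called higher. miR-30e-5p measured 16870, 15520 and 15270 CPM at day 7 and 24550, 25940 and 14270 CPM at day 14. Replicate 3 of day 14 was below all day 7 libraries while the other 2 were far above them. The difference was 0.39 (limma, adjusted p = 0.186), and 0.67 without replicate 3 (limma, adjusted p = 0.000878). miR-30c-5p had the same order of libraries, with 0.34 (limma, adjusted p = 0.293) and, without replicate 3, 0.59 (limma, adjusted p = 0.0116). Without that library 5 of the 7 were called higher, where 5.80% of all tested miRNAs were. The additions included miR-30a-5p and miR-30d-5p (limma, adjusted p = 0.0366 and 0.0468). miR-30a-3p, 1 base from miR-30e-3p, was above 0 by 0.33 (limma, adjusted p = 0.0992), and miR-30b-5p by 0.08 (limma, adjusted p = 0.779).

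miR-26a-5p, a miRNA that rises with differentiation in many tissues, measured 29200, 26800 and 29430 CPM at day 7 and 38210, 35870 and 32880 CPM at day 14. The days did not overlap and the difference was 0.32 ± 0.0880 (limma, adjusted p = 0.0383). It was called without day 14 replicate 3 and not without any of the other 5 libraries (adjusted p from 0.064 to 0.268). Its relative miR-26b-5p had a difference of 0.13 (limma, adjusted p = 0.403). miR-874-3p went from 27.7, 33.2 and 37.5 CPM to 57.3, 74.2 and 41.2 CPM, with day 14 replicate 3 just above the highest day 7 library. The difference was 0.76 ± 0.178 (limma, adjusted p = 0.0163), lost without day 7 replicate 1 or 2 or day 14 replicate 1 or 2 (adjusted p from 0.0608 to 0.127). Its other arm, miR-874-5p, had a difference of 0.39 (limma, adjusted p = 0.228), and of 0.54 without day 14 replicate 3 (limma, adjusted p = 0.0468).

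**Figure D3:**
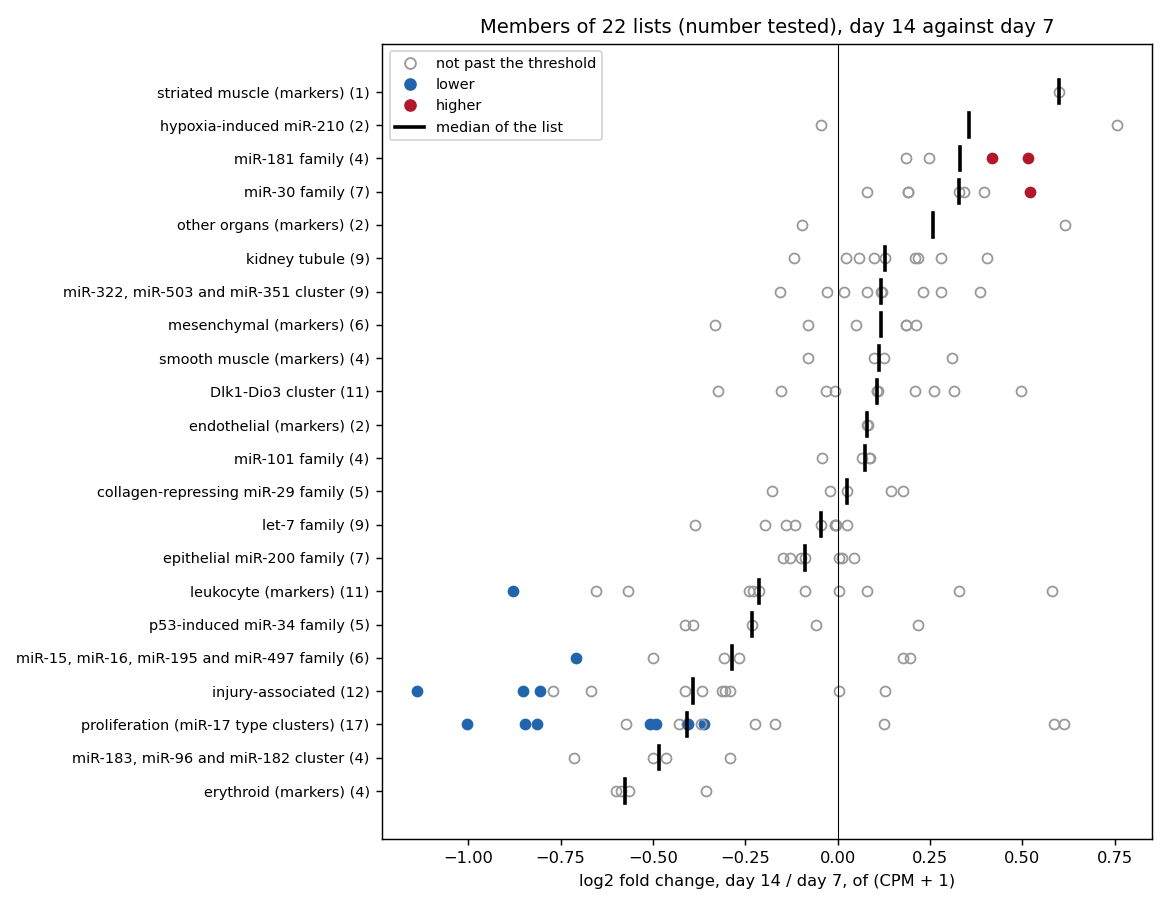
Each row is 1 list of miRNAs, each point a tested member at its log2 fold change, day 14 over day 7 (x axis), with called members coloured and a bar at the list's median. The median of the injury list is -0.391, that of the proliferation list -0.407 and those of the miR-30 and miR-181 families 0.329 and 0.332, beside -0.011 for all 431 miRNAs.

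The remaining lists had no called member with all 6 libraries. They were the miR-322 to miR-351 cluster (9 tested), the miR-34 family (5), the miR-183 to miR-182 cluster (4), miR-210 (2), tubule miRNAs (9), the families of miR-29 (5), miR-101 (4), miR-200 (7) and let-7 (9), the Dlk1-Dio3 cluster (11 of 20), and mesenchymal (6), smooth muscle (4), endothelial (2), erythroid (4), striated muscle (1) and other-organ (2) markers. Their medians ran from -0.575 for the erythroid markers, which track blood in the tissue, to 0.60 for the single striated muscle marker tested. Without day 14 replicate 3, miR-322-5p was called higher in the first of these (0.52, limma, adjusted p = 0.0377) and miR-190-5p among the tubule miRNAs (0.70, limma, adjusted p = 0.00393). All 4 tested members of the miR-183 cluster, miRNAs of sensory and epithelial cells, were below 0, with a median of -0.483. The tubule list, which holds miR-10 and miR-196 members as well as miR-192, had a median of 0.129, the value of miR-10a-5p. miR-192-5p had a difference of 0.02 (limma, adjusted p = 0.951), whose sign turned with library totals in place of TMM (-0.04). The miR-200 family, which keeps epithelial cells from a mesenchymal state, had a median of -0.090 that became 0.064 with upper-quartile scaling. The let-7 family median moved from -0.045 to 0.110 in the same way. let-7i-5p measured 9654, 8726 and 8402 CPM at day 7 and 6348, 5366 and 9289 CPM at day 14. It was not called (-0.39, limma, adjusted p = 0.139), and was called without day 14 replicate 3 (-0.61, limma, adjusted p = 0.000978).

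The mesenchymal miRNAs, known from fibroblasts and pericytes, were still high at day 14. The summed level of the 6 was 10920 to 11310 CPM at day 7 and 10040 to 16760 CPM at day 14, and none was at 0. That sum counts the reads shared by miR-199a-3p and miR-199b-3p under both names. miR-199a-3p, whose row holds the same reads as miR-199b-3p, measured 5016, 5245 and 5095 CPM at day 7 and 5346, 4674 and 7862 CPM at day 14. The days overlapped, and the difference of 0.18 (limma, adjusted p = 0.577) became -0.03 without day 14 replicate 3. miR-214-3p measured 254.8, 203.2 and 237.9 CPM and then 147.7, 140.0 and 297.2 CPM, a difference of -0.33 (limma, adjusted p = 0.466). Replicate 3 of day 14 was the highest of the 6 libraries for both. Without it miR-214-3p was called lower (-0.68, limma, adjusted p = 0.00999). All 6 mesenchymal miRNAs tested were called higher than day 0 at day 7, where 29.7% of all were, and at day 14, where 25.1% were. The reads shared by miR-199a-3p and miR-199b-3p count under both names in this 6 as well.

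The most abundant miRNAs at day 7, apart from miR-21-5p, had no call. miR-10a-5p made up 16.8% ± 2.49 of the reads at day 7 and 17.5% ± 0.614 at day 14 (difference 0.13, limma, adjusted p = 0.752). miR-10b-5p made up 11.6% ± 1.21 and 13.4% ± 1.21 (0.28, limma, adjusted p = 0.323). miR-22-3p made up 8.33% ± 0.963 and 7.76% ± 0.638 (-0.04, limma, adjusted p = 0.873), and miR-143-3p, a smooth muscle miRNA, 7.28% ± 1.13 and 7.46% ± 0.938 (0.10, limma, adjusted p = 0.714). The share of miR-10b-5p differed by more than the SD of either day, and the shares of the other 3 by less than the larger SD of the 2 days.

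The arms of a hairpin mostly shared a sign. Over 150 hairpin names with both arms tested, 105 had both arms on the same side of 0. Among the 16 with an arm called it was 15, and in 3 of them, miR-21, miR-18a and miR-92a, both arms were called. The exception was miR-181c, whose 5p arm rose.

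The level at day 14 was then set against day 0 and day 28. These comparisons share the day 7, day 14 or day 0 libraries, so they are given side by side and do not support each other. All 14 miRNAs that fell had been called higher at day 7 than at day 0, where 128 of 431 (29.7%) were. At day 14, 9 of them were still called higher than at day 0 (25.1% of all), and 3 were at day 28 (11.1% of all), which were miR-223-3p, miR-21-5p and miR-212-3p. miR-21-5p stood 2.37 above day 0 at day 7, 1.56 at day 14 and 0.62 at day 28 (log2, limma, adjusted p = 4.31e-10, 1.07e-07 and 0.00778). miR-18a-5p stood 1.96, 0.95 and 0.24 above it (limma, adjusted p = 8.40e-08, 0.000720 and 0.491). The 5 no longer called above day 0 at day 14 were miR-106b-5p, miR-18a-3p, miR-20a-5p, miR-330-5p and miR-92a-3p, with differences from day 0 of 0.24 to 0.53. miR-92a-3p, miR-330-5p and miR-18a-3p missed the threshold narrowly (limma, adjusted p = 0.0526, 0.058 and 0.0603). Of the 5, 4 belong to the proliferation clusters. From the same clusters, miR-18a-5p, miR-17-5p, miR-93-5p and miR-92a-5p were still called higher than day 0. miR-106b-5p was at 115 ± 12.6 CPM at day 14 and 93.9 ± 7.31 CPM at day 0 (SD, n = 3). Of the 3 that fell in the injury list, all were still called higher at day 14.

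**Figure D4:**
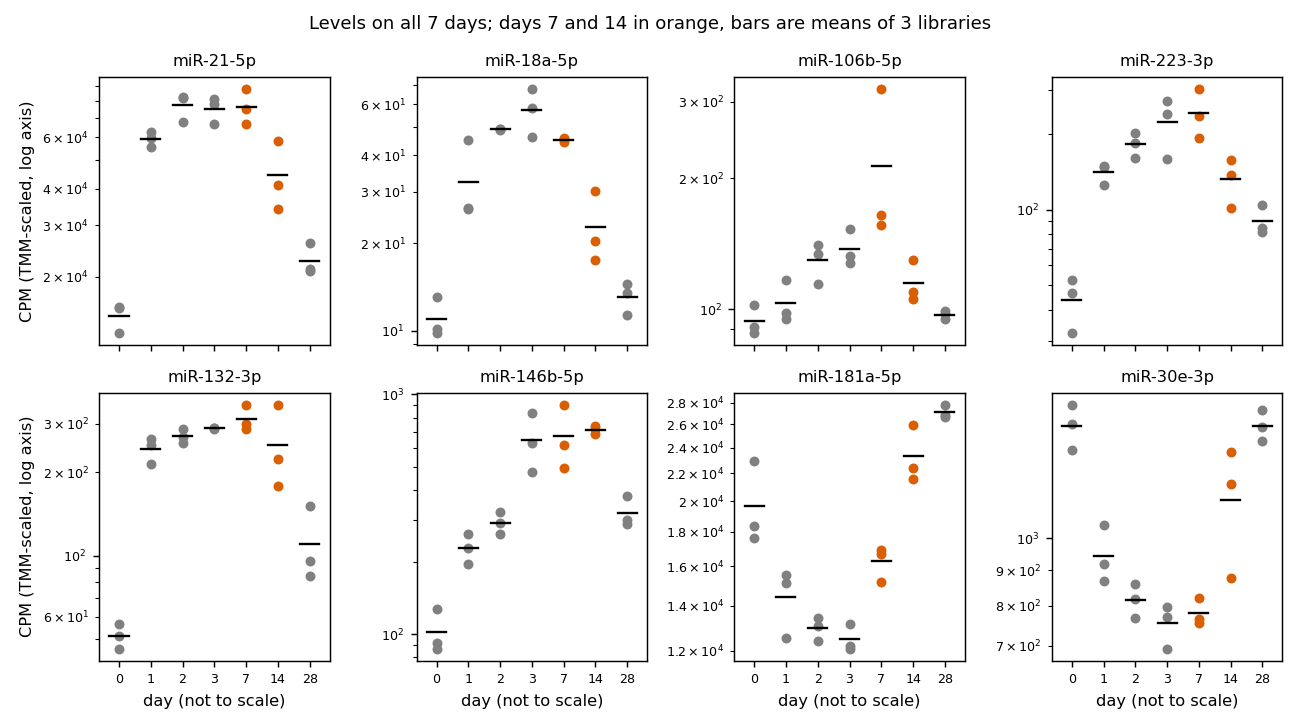
Levels of 8 miRNAs in all 21 libraries by day (x axis, evenly spaced and not to scale; y axis TMM-scaled CPM, log axis), with days 7 and 14 in orange and bars at the means of 3 libraries. miR-21-5p, miR-18a-5p, miR-106b-5p and miR-223-3p are lower at day 14 than at day 7, miR-132-3p and miR-146b-5p overlap between days 7 and 14 and are lower at day 28, and miR-181a-5p and miR-30e-3p are higher at day 14.

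Among the 5 that rose, 4 had been called lower at day 7 than at day 0 (22.7% of all were). The exception was miR-181c-5p, at 0.20 above day 0 (limma, adjusted p = 0.127). At day 14, miR-30e-3p was still called lower than day 0 (-0.37, limma, adjusted p = 0.0176), where 17.9% of all were. miR-181c-5p was called higher (0.62, limma, adjusted p = 1.17e-04), and miR-26a-5p, miR-181a-5p and miR-874-3p were not called. By day 28 miR-181a-5p and miR-181c-5p were called above day 0, by 0.47 and 0.81 (limma, adjusted p = 0.00295 and 1.9e-05). The miR-181 pair thus moved past its starting level, and miR-30e-3p was back at it (1453 ± 75.7 CPM at day 28 and 1452 ± 109 CPM at day 0, SD, n = 3).

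The following step, day 14 to day 28, called 33 miRNAs lower (7.66%) and 20 higher (4.64%). It spans a longer time than the step from day 7 to day 14. The changes below are per step and were not scaled to its length, so they do not compare rates. Of the 14 that fell by day 14, 6 fell again: both arms of miR-21, miR-212-3p, miR-18a-5p, miR-15b-5p and miR-92a-5p. miR-21-5p changed by -0.94 from day 14 to day 28 after -0.81 from day 7 to day 14 (limma, adjusted p = 0.00114 and 0.00528). miR-132-3p and miR-146b-5p, which had no call in the first step, were called in the second, by -1.17 and -1.15 (limma, adjusted p = 0.00114 and 0.00164). The difference between the 2 steps itself was tested for every miRNA, and limma called 0 of 431, with 31 at an unadjusted p under 0.05. edgeR called 0 and DESeq2 1. For miR-146b-5p the second step was lower than the first by -1.28 ± 0.355 (limma, adjusted p = 0.364), and for miR-132-3p by -0.80 ± 0.343 (limma, adjusted p = 0.605). That test asks of each miRNA alone whether its 2 steps differed, and compares no miRNA with another. An order in which some injury miRNAs recede before others was therefore not tested. A p that misses the threshold does not show that the steps of a miRNA were alike.

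**Figure D5:**
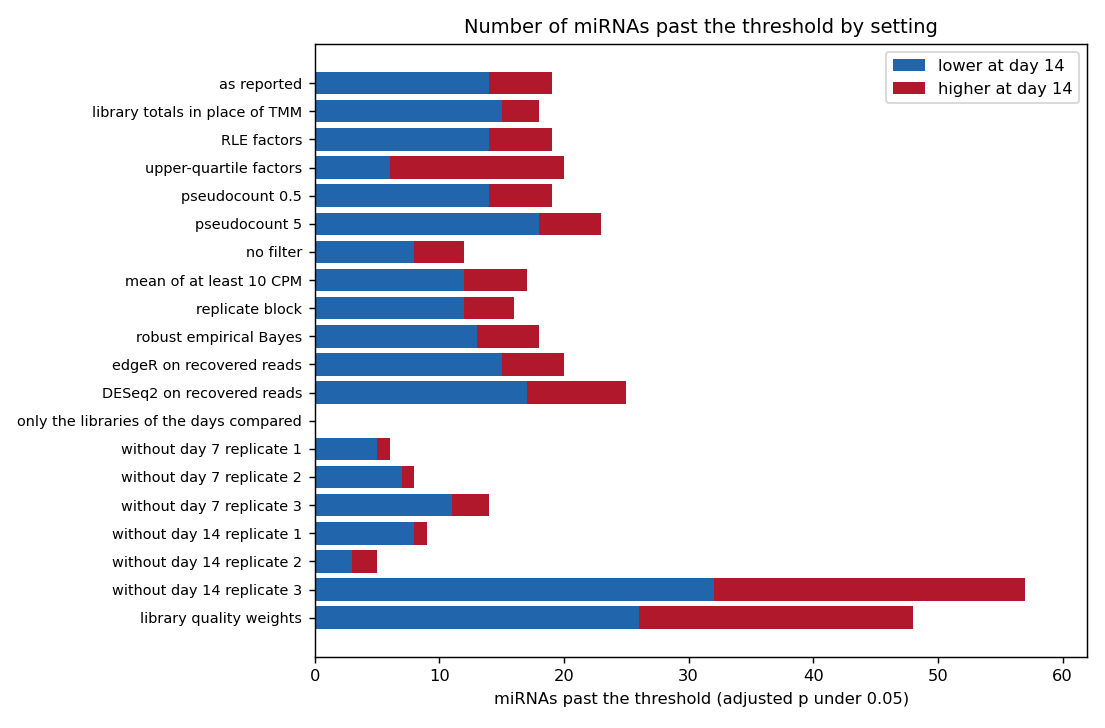
Number of miRNAs called lower and higher at day 14 against day 7 under each setting tried (bars from 0). The count is 19 as reported, 0 when only the 6 libraries are fitted, between 5 and 14 without any 1 of the libraries other than day 14 replicate 3, and 57 without that library.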

How the data were processed

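Small RNA libraries (TruSeq kit, per the labels' protocols) were analysed for days 7 and 14, 3 libraries each, within a fit over all 21. The authors deposited CPM for 1125 mature miRNAs, scaled so that each column has the same total. Per the submitters' processing notes CASAVA 1.8 and mm9 were used, while aligner, counter and miRBase version were not given in the sources used here. Whole reads were recovered from the deposited CPM for 100% of values (tolerance 0.05 of a read). These gave totals of 2875675 to 7110546 reads per library, the filter and the count tests. The limit set by a count of 0 is 3 reads and covers counting error only.

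The edgeR function filterByExpr (minimum count 10) kept 431 miRNAs. Of the other 694, 250 had no read. limma 3.58.1 (R 4.3.3) tested log2(CPM + 1) after TMM scaling by edgeR 4.0.16, with a mean per day and Benjamini-Hochberg adjustment, and adjusted p-values are from it unless another tool is named. edgeR's quasi-likelihood test and DESeq2 1.42.0 on the recovered reads were alternatives. The scripts were tested on simulated data. Named miRNAs are the 12 largest falls and 10 largest rises among calls with a mean of at least 10 CPM and no overlap, the members and relatives of 22 fixed lists, and the 5 most abundant at day 7. miR-18a-3p, below that mean, and miR-92a-3p are named as list members. The members and lists were chosen with earlier results of these data known. miR-194-5p and miR-1-3p are not analysed here under those names. A miRNA named miR-194-2-5p was tested outside the tubule list and not called (difference 0.008, limma, adjusted p = 0.988). Positions are from GRCm38 and its GENCODE annotation, not from the authors' mm9, and no coordinates were converted. 12 tested rows held reads identical to another row.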

Additional observations from a re-analysis of the deposited data

How the results depend on the processing

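All 19 called miRNAs kept their direction under each of the 19 alternatives in which they were tested. miR-21-3p, miR-21-5p, miR-15b-5p and miR-181a-5p kept their call in 18 of 19, and miR-212-3p in 7. Of the 19 calls, 16 remained with library totals, 19 with RLE, 11 with upper-quartile factors, 18 with edgeR and 19 with DESeq2. The total of 19 became 12 with no filter (8 lower), 0 with only the libraries of the days compared (0 higher, 0 lower), and 48 with library quality weights (22 higher, 26 lower), which were chosen after seeing the data and gave day 14 replicate 3 a weight of 0.256. Upper-quartile factors gave 14 higher and 6 lower, library totals 3 higher and DESeq2 8 higher. Leaving out 1 library gave 5 to 57 calls, 1 to 25 higher and 3 to 32 lower. The cause was not tested, beyond the fewer libraries or the added scarce miRNAs that a setting itself brings. The count of miRNAs whose steps differed was 0, and 1 with no filter, 1 with DESeq2 and 0 to 2 without 1 library.

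Signs turned only for miRNAs near 0. With library totals miR-199a-5p was at -0.012 and miR-192-5p at -0.039. Leaving out 1 library gave -0.069 to 0.366 for miR-146b-5p, -0.116 to 0.417 for miR-363-3p, -0.108 to 0.217 for miR-199a-5p, -0.034 to 0.341 for miR-199a-3p and -0.068 to 0.157 for miR-192-5p. The replicate block called 16 of the 431. Deviations of same-numbered libraries correlated at 0.153, -0.083 and 0.205 across miRNAs. The first and last of these were the highest of any pair, and pairs of unlike number ran from -0.244 to 0.1. Day 14 replicate 2 correlated more with day 7 replicate 1 (0.078) than with its own number. The numbers were not taken to pair the libraries, a question that these values do not settle. Depth limits scarce miRNAs most: miR-18a-3p rests on 12 to 43 reads per library.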

Other observations

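Without day 14 replicate 3, 39 further miRNAs were called, and some lie outside every list above. Among those named here after their values were seen, miR-203-3p, a miRNA of differentiating epithelium, was higher at day 14 by 0.56 ± 0.109 (limma, adjusted p = 0.00201), miR-140-5p, best known from cartilage, by 0.61 ± 0.151 (limma, adjusted p = 0.0132), and miR-3073b-5p by 1.10 ± 0.198 (limma, adjusted p = 0.000995). miR-331-3p was lower by -0.63 ± 0.162 (limma, adjusted p = 0.0168). With all 6 libraries none of these passed.

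Some miRNAs with no call had libraries that did not overlap between the days. miR-674-5p measured 23.8, 24.8 and 23.1 CPM at day 7 and 18.9, 16.2 and 17.0 CPM at day 14, and its difference of -0.44 was not called (limma, adjusted p = 0.0504) but passed under 4 alternatives, edgeR among them (-0.46, adjusted p = 0.0446). miR-130b-3p, of a family known for repressing PPAR gamma, measured 53.1, 51.6 and 39.3 CPM and then 33.7, 28.3 and 32.7 CPM (-0.58, limma, adjusted p = 0.0710). It passed under 6 alternatives, among them library totals (limma, adjusted p = 0.0240), edgeR (adjusted p = 0.0446) and DESeq2 (adjusted p = 0.0233). miR-210-5p, the scarce arm of a hypoxia-induced hairpin, measured 1.95, 1.63 and 1.99 CPM and then 3.74, 3.71 and 4.0 CPM (0.76, limma, adjusted p = 0.151). These 3 were named after their values were seen.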
